A study of Homo sapiens with 8 samples.

Results

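The 10 genes described here are regulators of the integrated stress response: ATF4, DDIT3 (also called CHOP), ATF3, ATF5, CEBPB, TRIB3, CHAC1, SESN2, DDIT4 and PPP1R15A. They were picked by name, with earlier results of these data known, out of 27945 genes in a table of 65572 transcripts. The table listed 31 transcripts of the 10 genes, of which 1 per gene was kept, that with the highest mean level over the 8 libraries. All 10 genes were among the 13789 that were tested. Values are FPKM, the reads on a transcript per kilobase of its length, scaled to the reads of the library.

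RNA sequencing of EA.hy926 cells was used to ask how the loss of a single constituent of an endothelial super-enhancer alters transcription. EA.hy926 is an immortalized hybrid of umbilical vein endothelial cells and lung carcinoma cells. E2, a constituent of the super-enhancer SE12313 with enhancer activity in reporter vectors, was deleted in 3 clonal lines (ΔE2), and SE12313-b, another constituent without such activity, in 3 other clonal lines (ΔSE12313-b). Deletions were made with Cas9 protein and a pair of guide RNAs, and 2 libraries labelled Control carry neither deletion.

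All 8 libraries come from the same cell line, and the study describes 1 culture medium for it and no stress treatment. For its proliferation assay the study used control cells that had received guide RNAs and were grown alongside the clones. Whether the RNA of the control libraries came from these cells, and whether from separate cultures, is not stated. Clonal growth and the deletion therefore cannot be told apart in any comparison with the control. The control libraries differed by little more than counting error. Over tested genes with at least 10 reads in a pair of libraries, chi-square divided by its degrees of freedom was 1.19 for the control pair, 3.98 to 20.7 for pairs of ΔE2 clones and 8.34 to 22.8 for those of ΔSE12313-b. The p-values given below set differences against the spread between these samples, and the spread of the control may be largely technical. Libraries held 12067557 to 19101155 reads. Of 12 endothelial marker genes, 9 were at or above 1 FPKM in every library, 2 (KDR and CLDN5) were below 1 FPKM in every library with CLDN5 at 0, and VWF was above 1 FPKM in the controls alone. Of 4 leukocyte markers all were below 1 FPKM in every library.

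The integrated stress response is set off when one of several kinases phosphorylates the translation factor eIF2 in response to misfolded protein, lack of amino acids, lack of heme or viral RNA. General translation then slows, while the mRNA of ATF4 is translated more. ATF4 is a transcription factor of the bZIP family (basic region and leucine zipper), and with partners such as C/EBP proteins it binds the C/EBP-ATF response element near genes of amino acid supply, redox balance and cell death. Only RNA was measured here, so neither eIF2 phosphorylation nor ATF4 protein is covered.

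Sequences around matches to this response element are shown because they are what several of the 10 genes share beyond their level. The 1000 bases before the start of each kept transcript (GRCh37) were searched on both strands for TGATGNAAN and for the stricter TTGCATCA. The reverse complement of the stricter form lies within the looser one, so each match of the stricter form is also a match of the looser. Matches are printed along the strand of the gene in capitals, with 10 bases on either side. DDIT3, CHAC1 and TRIB3 hold the stricter form as written, DDIT4 holds it on the opposite strand, and SESN2 and ATF3 hold the looser form alone:
TRIB3: ttagctccggTTTGCATCAcccggaccgg
CHAC1: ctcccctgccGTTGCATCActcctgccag
DDIT3: gttgccaaacATTGCATCAtccccgcccc
DDIT4: tcctcggtccTGATGCAACcgtctggatc
SESN2: gtgaagtcccTTTTCATCAcgcaacccta
ATF3: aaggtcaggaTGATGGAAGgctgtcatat

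The TRIB3 stretch occurs 3 times in identical form, with a spacing of 33 bases, at chr20:361525-361553, chr20:361558-361586 and chr20:361591-361619 on the plus strand. All copies lie in an untranslated exon of a longer TRIB3 transcript. The CHAC1 stretch is at chr15:41245449-41245477 (plus strand), also in an untranslated exon of a longer transcript of its own gene. The DDIT3 stretch at chr12:57914586-57914614 (minus strand) lies within the annotated bounds of DDIT3 and MBD6, outside their exons. That of DDIT4, at chr10:74032726-74032754 (plus strand), lies in an exon of an unnamed gene model, and those of SESN2 (chr1:28585722-28585750, plus strand) and ATF3 (chr1:212738548-212738576, plus strand) lie in no annotated gene.

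**Figure D1:**
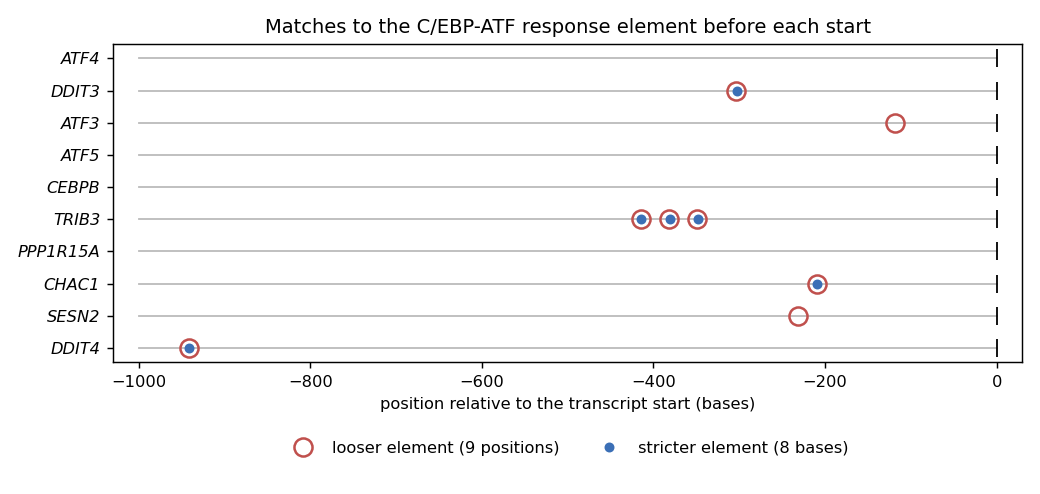
Positions of matches to the C/EBP-ATF response element in the 1000 bases before the start of the kept transcript of each gene, on an axis in bases from that start; open circles mark the looser form and filled points the stricter one. Matches are seen in 6 of 10 genes, with 3 evenly spaced copies in TRIB3 at 415, 382 and 349 bases before its start.

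In all, 6 of the 10 genes (60.0%) had a match of the looser form, against 12.66% of 27869 genes searched and 9.95% of those tested. The stricter form was found in 4 of the 10 (40.0%), against 2.31% and 1.75%. No match was found for ATF4, ATF5, CEBPB and PPP1R15A in this window. In the RefSeq table of promoters, which covers 300 bases around the start in GRCh38.p14, 2 of the 10 genes (ATF3 and CHAC1) held the looser form, against 4.45% of 27305 genes, and CHAC1 alone held the stricter one, against 1.08%. The longer window was chosen after the data were seen. The 10 genes were picked by name, and some of them are known to be induced by ATF4. Their shares are therefore a description, and enrichment of the element was not tested. A match is a description of the letters and not evidence of binding.

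Most of these regulators were expressed at lower levels in both sets of clones than in the control. ATF4, TRIB3, DDIT3, CHAC1, SESN2, DDIT4 and CEBPB were lower in both deletions, with group means between 2.43-fold (DDIT3 in ΔE2) and 10.5-fold (DDIT4 in ΔE2) below the control. ATF5 was the exception in the other direction, with a mean 1.77-fold higher in ΔE2 and 2.07-fold higher in ΔSE12313-b. ATF3 was lower in ΔSE12313-b alone, and PPP1R15A was 1.33-fold and 1.35-fold lower. Since the genes were chosen with these comparisons in view, their values against the control are given as a description, without p-values. In bulk RNA, fewer cells that express a gene and less of its RNA per cell cannot be told apart.

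**Figure D2:**
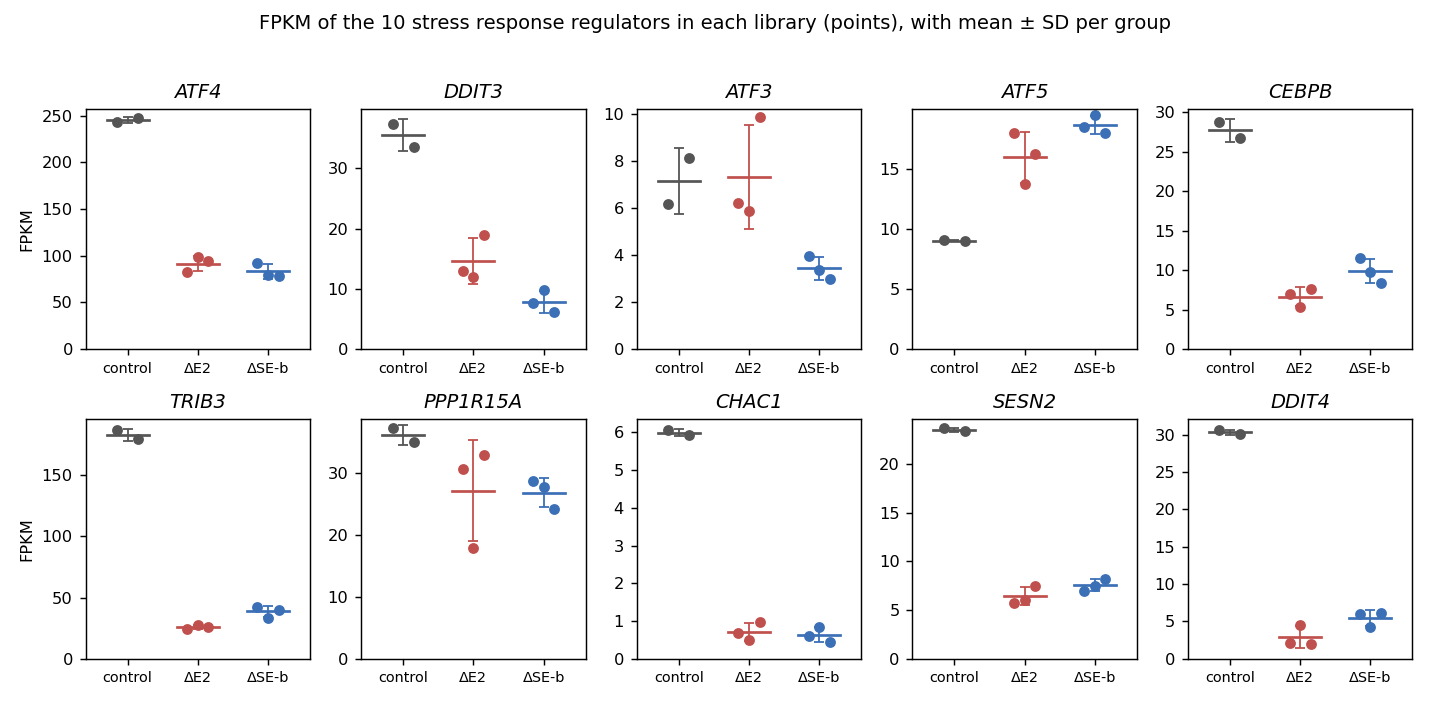
FPKM (linear axis from 0) of each of the 10 genes in 2 control, 3 ΔE2 and 3 ΔSE12313-b libraries (ΔSE-b on the axis); points are libraries, horizontal lines are means and bars are 1 SD. ATF4, DDIT3, CEBPB, TRIB3, CHAC1, SESN2 and DDIT4 lie below both controls in all 6 clones, while ATF5 lies above both.

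ATF4 (22q13.1, chr22:39916569-39918691, plus strand) is the factor at the centre of the response. Its FPKM was 243 and 247 in the control, 83.0, 98.1 and 93.9 in ΔE2 clones, and 92.2, 79.5 and 78.2 in ΔSE12313-b clones. All 6 clones were below both controls, and the ranges of the deletions overlapped each other. The log2 fold change was -1.42 (standard error 0.10) in ΔE2 and -1.56 (0.10) in ΔSE12313-b. ATF4 remained the most highly expressed of the 10 genes in every group.

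DDIT3 (12q13.3, chr12:57910371-57914300, minus strand) codes for CHOP, a bZIP factor that ATF4 induces and that promotes cell death under prolonged stress. Its FPKM was 37.4 and 33.6 in the control, 12.9, 12 and 18.9 in ΔE2 clones, and 7.63, 9.85 and 6.19 in ΔSE12313-b clones. The 3 groups did not overlap, with the control highest and ΔSE12313-b lowest, and the log2 fold changes were -1.30 (standard error 0.23) and -2.18 (0.23). The kept transcript shares 68 bases with the end of MARS on the opposite strand and contains MIR616 on its own strand. How the counting treated strand is not given in the sources used here.

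ATF3 (1q32.3, chr1:212738676-212794119, plus strand) is a bZIP factor that is induced by many stresses and can repress the genes it binds. FPKM values of 6.17 and 8.13 in the control stood beside 6.20, 5.88 and 9.85 in ΔE2 and 3.96, 3.38 and 2.99 in ΔSE12313-b. The ΔE2 clones lay around the controls, whereas all ΔSE12313-b clones lay below every other library. The log2 fold change was 0.01 (95% interval -0.55 to 0.56) in ΔE2 and -1.03 (-1.58 to -0.47) in ΔSE12313-b. The latter was -0.83 without control replicate 2 and -0.93 without ΔSE12313-b replicate 3, under 2-fold in both cases.

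ATF5 (19q13.33, chr19:50432400-50437193, plus strand) is a relative of ATF4 whose own mRNA is also translated more when eIF2 is phosphorylated. It had 9.04 and 8.99 FPKM in the control, 18.0, 13.7 and 16.2 in ΔE2 clones, and 18.5, 19.4 and 18.0 in ΔSE12313-b clones. Every clone was above both controls. Its log2 fold change was 0.81 (standard error 0.11) in ΔE2, under 2-fold, and 1.04 (0.11) in ΔSE12313-b. With each library centred on the median deviation of its genes from their own means, the latter fell to 0.75, under 2-fold as well.

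The kept ATF5 transcript shares 400 bases with the start of NUP62 on the opposite strand, which was itself higher in the clones (mean FPKM of 17.7, 34.7 and 38.3). A shorter ATF5 transcript, which starts at 50433461 beyond the listed NUP62, had 8.55 and 8.30 FPKM in the control, 16.7, 13.2 and 15.1 in ΔE2 clones, and 17.2, 18.1 and 16.6 in ΔSE12313-b clones. The log2 ratio of its group means to the control was 0.83 and 1.04. That transcript was chosen with its values known.

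CEBPB (20q13.13, chr20:48807120-48809227, plus strand) codes for C/EBPβ, a bZIP partner of ATF4 that also acts in inflammation. Its FPKM was 28.7 and 26.7 in the control, 7.01, 5.27 and 7.57 in ΔE2 clones, and 11.5, 9.72 and 8.43 in ΔSE12313-b clones. The groups did not overlap, and here ΔE2 was lowest. The log2 fold changes were -2.06 (standard error 0.18) and -1.49 (0.18). An antisense gene, CEBPB-AS1, covers 1487 bases of it on the opposite strand and was at mean FPKM of 0.151, 0.0893 and 0.21.

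TRIB3 (20p13, chr20:361950-378203, plus strand) is a pseudokinase that ATF4 and CHOP induce and that in turn dampens them. FPKM values of 187 and 180 in the control compared with 24.5, 27.5 and 26.3 in ΔE2 and 42.5, 33.4 and 40.2 in ΔSE12313-b. The groups were fully apart, with clones of each deletion close together. Its log2 fold changes were -2.81 (standard error 0.11) and -2.25 (0.11), from a level second to that of ATF4 in the control.

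PPP1R15A (19q13.33, chr19:49375649-49379319, plus strand) codes for GADD34, which directs a phosphatase to eIF2 and so ends the response. It had 37.3 and 35.0 FPKM in the control, 30.6, 17.9 and 33.0 in ΔE2 clones, and 28.7, 27.7 and 24.2 in ΔSE12313-b clones. All clones lay below both controls, but the gap was small and ΔE2 replicate 2 stood apart from its group. The log2 fold changes were -0.46 (95% interval -1.01 to 0.09) in ΔE2 and -0.43 (-0.98 to 0.12) in ΔSE12313-b. These values depended on scaling and on 1 library. They were -0.62 and -0.72 with each library centred and -0.79 and -0.89 with quantile normalization, and the ΔE2 value was -0.18 without ΔE2 replicate 2.

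CHAC1 (15q15.1, chr15:41245669-41248717, plus strand) codes for an enzyme that degrades glutathione. It had 6.06 and 5.94 FPKM in the control, 0.688, 0.499 and 0.965 in ΔE2 clones, and 0.613, 0.843 and 0.455 in ΔSE12313-b clones. The clones of both deletions overlapped each other and lay far below the controls. Behind these values stood 117 and 109 reads in the controls and 11 to 20 reads in each clone, so that counting error is larger here than for the other genes. The log2 fold changes were -2.94 (standard error 0.30) and -3.08 (0.30).

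SESN2 (1p35.3, chr1:28585963-28609002, plus strand) codes for sestrin 2, a leucine sensor that holds back mTORC1, the kinase complex that drives growth. FPKM was 23.6 and 23.3 in the control, 5.75, 6.0 and 7.46 in ΔE2 clones, and 6.93, 7.49 and 8.18 in ΔSE12313-b clones. The clones were all well below the controls and overlapped between deletions, with log2 fold changes of -1.87 (standard error 0.13) and -1.63 (0.13).

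DDIT4 (10q22.1, chr10:74033677-74035794, plus strand) codes for REDD1, an inhibitor of mTORC1 that hypoxia, glucocorticoids and ATF4 induce. Its FPKM was 30.6 and 30.1 in the control, 2.07, 4.59 and 2.02 in ΔE2 clones, and 6.02, 4.22 and 6.17 in ΔSE12313-b clones. All clones were far below the controls, and ΔE2 replicate 2 fell within the range of ΔSE12313-b. The log2 fold changes were -3.45 (standard error 0.34) and -2.47 (0.34).

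By the thresholds used for all genes, adjusted p under 0.05 in limma and at least 2-fold, 7 of the 10 genes were lower and 0 higher in ΔE2, where 8.36% of all genes tested were lower and 11.2% higher. In ΔSE12313-b, 8 of the 10 were lower and 1, ATF5, was higher, where 7.83% of all genes tested were lower and 14.7% higher. The median log2 fold change of the 10 genes was -1.64 and -1.59, while that of all genes tested was 0.14 and 0.27. The libraries did not overlap between control and clones for 9 of the 10 genes in ΔE2, with ATF3 the exception, and for all 10 in ΔSE12313-b. This held for 73.5% and 75.3% of all genes tested, so that non-overlap is common in these comparisons. Both comparisons share the same 2 control libraries.

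The all-gene medians of 0.14 and 0.27 depend on scaling. Each library was also centred on the median deviation of its genes from their own means. The genes higher and lower then went from 1544 and 1153 to 1170 and 1464 in ΔE2. In ΔSE12313-b they went from 2032 and 1080 to 1201 and 1570. Among the 10 regulators, centring left 7 lower and 0 higher in ΔE2 and 8 lower and 0 higher in ΔSE12313-b, where ATF5 dropped under 2-fold. The log2 fold change of ATF3 in ΔE2 ranged from -0.23 to 0.20 over the alternatives.

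**Figure D3:**
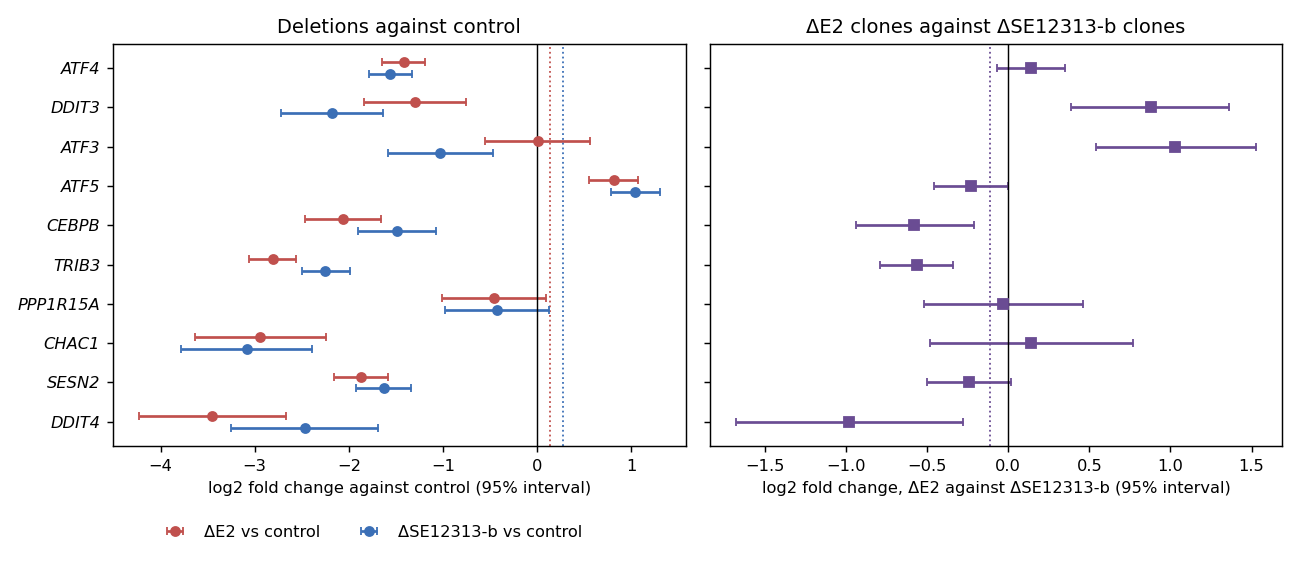
Log2 fold change of each gene with its 95% interval from limma, for both deletions against the control (left) and for ΔE2 against ΔSE12313-b (right); dotted lines mark the median of all genes tested. ATF5 is the single gene right of the all-gene medians in both deletions, and in the direct comparison DDIT3 and ATF3 lie to the right while CEBPB, TRIB3 and DDIT4 lie to the left.

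The direct comparison of ΔE2 with ΔSE12313-b clones was tested. It uses the same clones as the comparisons in view when the genes were chosen, so it is not independent of that choice. ATF3 and DDIT3 were higher in ΔE2, and TRIB3, CEBPB and DDIT4 were lower. ATF3 had a mean of 7.31 ± 2.20 FPKM across ΔE2 clones and of 3.44 ± 0.487 across ΔSE12313-b clones (SD, n = 3 each), a log2 difference of 1.03 ± 0.21 (standard error). The limma test gave an adjusted p of 0.011 (Benjamini-Hochberg, over all genes). It was the 1 gene of 10 past both thresholds, which 4.23% of all genes tested passed. It lost the 2-fold change without ΔE2 replicate 3 (0.80) or without ΔSE12313-b replicate 3 (0.94).

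By adjusted p alone, 5 of the 10 genes differed between the deletions, against 26.0% of all genes tested. DDIT3 was higher in ΔE2 by 0.88 on the log2 scale (standard error 0.21), with an adjusted p of 0.0191 in limma (Benjamini-Hochberg). TRIB3 was lower in ΔE2 by this limma test, with a log2 difference of -0.56 (standard error 0.10, adjusted p = 0.00551 after Benjamini-Hochberg adjustment). For CEBPB the log2 difference was -0.58 (standard error 0.16, adjusted p = 0.0315) and for DDIT4 -0.98 (standard error 0.30, adjusted p = 0.048), both from the limma fit (Benjamini-Hochberg). The adjusted p of CEBPB was at or above 0.05 in 11 of 19 refits with other settings or fewer libraries, and that of DDIT4 in 14 of 19. Without ΔE2 replicate 2 the difference in DDIT4 was -1.36, and without ΔE2 replicate 3 it was -0.78. The limma fit takes 1 spread per gene from all 3 groups. The small spread of the 2 controls therefore enters this comparison too and may lower its p-values.

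No difference between the deletions was detectable by limma for ATF4 (log2 difference 0.14, 95% interval -0.07 to 0.35), CHAC1 (0.14, -0.48 to 0.77), SESN2 (-0.24, -0.50 to 0.02), ATF5 (-0.23, -0.46 to 0.00) and PPP1R15A (-0.03, -0.52 to 0.46). These intervals leave room for a difference of over 1.5-fold in CHAC1, and they do not show that the deletions act alike.

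FPKM is a level per length, so the genes can be ranked within a group. In the control the order of mean FPKM was ATF4 (245), TRIB3 (183), PPP1R15A (36.1), DDIT3 (35.5), DDIT4 (30.3), CEBPB (27.7), SESN2 (23.5), ATF5 (9.01), ATF3 (7.15) and CHAC1 (5.99). There, PPP1R15A and DDIT3 were the single pair of neighbours whose libraries overlapped. In ΔE2 the order was ATF4 (91.7), PPP1R15A (27.2), TRIB3 (26.1), ATF5 (15.9), DDIT3 (14.6), ATF3 (7.31), CEBPB (6.62), SESN2 (6.40), DDIT4 (2.89) and CHAC1 (0.717). PPP1R15A and TRIB3, ATF5 and DDIT3, and the 3 genes ATF3, CEBPB and SESN2 were not separated by their libraries.

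In ΔSE12313-b the order of mean FPKM was ATF4 (83.3), TRIB3 (38.7), PPP1R15A (26.8), ATF5 (18.6), CEBPB (9.88), DDIT3 (7.89), SESN2 (7.53), DDIT4 (5.47), ATF3 (3.44) and CHAC1 (0.637). Those of DDIT3 overlapped with both neighbours, CEBPB and SESN2. ATF5 moved from the eighth place in the control to the fourth place in both deletions, while DDIT4 fell from the fifth place to the ninth in ΔE2 and to the eighth in ΔSE12313-b.

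The 10 genes lie on 7 chromosomes, none of them that of the super-enhancer. Within 5 Mb of each gene, 38 to 214 other tested genes start. Their median log2 fold change lay between -0.22 (around ATF5) and 0.33 (around ATF3) in ΔE2, and between 0.00 and 0.82 in ΔSE12313-b. The highest of these was around DDIT4, which itself was lower in ΔSE12313-b. Around ATF4 the medians were 0.10 and 0.38, around TRIB3 0.31 and 0.19, and around CHAC1 0.30 and 0.36, all opposite in sign to the gene itself. Other listed transcripts of each gene gave nearly the same values, for example log2 ratios of group means of -2.82 to -2.80 over 6 transcripts of TRIB3 in ΔE2.

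For each gene, the tested genes with the most similar profile over the 8 libraries were found by the smallest root mean square difference of log2 values, each gene centred on its mean. SLC1A4, a transporter of neutral amino acids, was closest to ATF4 (0.0704), with mean FPKM of 2.84, 1.09 and 0.905. GAS5, a non-coding RNA that hosts small nucleolar RNAs, was closest to SESN2 (0.143), going from 308 to 90.8 and 96.0. SNRPB, a core protein of the spliceosome, was closest to ATF5 (0.0525), rising from 157 to 280 and 325. The next were ARHGEF2 for ATF4 (0.107), RGMB for SESN2 (0.148) and MEA1 for ATF5 (0.0667). Closest to DDIT3 were CPT1B, a carnitine transferase for fatty acids (0.168), and the cytokine IL1A (0.203), and to TRIB3 PROB1 (0.177) and CSF3, a cytokine for granulocytes (0.191). Those of CEBPB were PHLDA1 (0.187) and LINC02256 (0.188), those of ATF3 were SYNE1 (0.195) and AHI1 (0.211), those of CHAC1 were TMEM9B-AS1 (0.149) and NHEG1 (0.193), and those of PPP1R15A were ADAMTSL5 (0.132) and NABP1 (0.136). For DDIT4 the distances were larger, at 0.282 for TCP11L2 and 0.31 for LST1. These are descriptions over 8 libraries in 3 groups.

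Genes around these regulators in the pathway were taken from lists of textbook members, with earlier results of these data known. None of the lists was tested as a whole, and single genes were tested in the fit over all genes. Since many named genes are the largest changes of their list, their values against the control are a description. Over all 13789 genes tested, 8.36% fell and 11.2% rose in ΔE2 by both thresholds, and 7.83% and 14.7% in ΔSE12313-b. By adjusted p alone, 4782 were higher and 2672 lower in ΔE2, and 5926 and 2261 in ΔSE12313-b.

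Of 37 known targets of ATF4 and CHOP, 31 were tested, 12 fell and 0 rose in ΔE2, and 12 fell and 0 rose in ΔSE12313-b. By adjusted p alone 20 were lower and 2 higher in ΔE2, and 18 lower and 3 higher in ΔSE12313-b. PSPH (0.57 and 0.66) and ALDH18A1 (0.49 and 0.92), enzymes of serine and proline synthesis, were the higher ones in ΔE2 and, with ERO1A, in ΔSE12313-b. The median log2 fold change was -0.57 and -0.78. CBS, which makes cystathionine from homocysteine, fell from 8.49 ± 0.304 FPKM (SD, n = 2) to 0.949 ± 0.381 and 1.15 ± 0.236 (SD, n = 3 each). Its log2 fold change was -3.09 and -2.79 in the limma fit.

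ALDH1L2, a mitochondrial enzyme of folate metabolism, fell from 3.23 ± 0.139 FPKM to 0.963 ± 0.0748 and 0.343 ± 0.0532. It was also higher in ΔE2 than in ΔSE12313-b, by 1.27 on the log2 scale, a difference of 0.55 with a pseudocount of 1. KLHL24, the other target past both thresholds between the deletions, was lower in ΔE2 (-1.08). Of all genes tested, 4.23% passed both thresholds there. ALDH1L2 was named as one of the largest falls in ΔSE12313-b and KLHL24 with its values known, so both differences are a description. INHBE, a subunit of activins, had 52 and 20 reads in the controls and at most 1 read in each clone, and its fold change depends on the pseudocount. It did not pass the filter on low values when either control library was left out. GDF15, a circulating stress hormone, was among the most highly expressed targets and fell from 190 ± 4.61 FPKM to 61.4 ± 3.33 and 68.6 ± 7.17. SLC38A2, an amino acid transporter at 158 ± 5.42 FPKM in the control, was at 171 ± 23.8 and 151 ± 2.58 and did not pass the test (log2 fold changes 0.11 and -0.06).

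**Figure D4:**
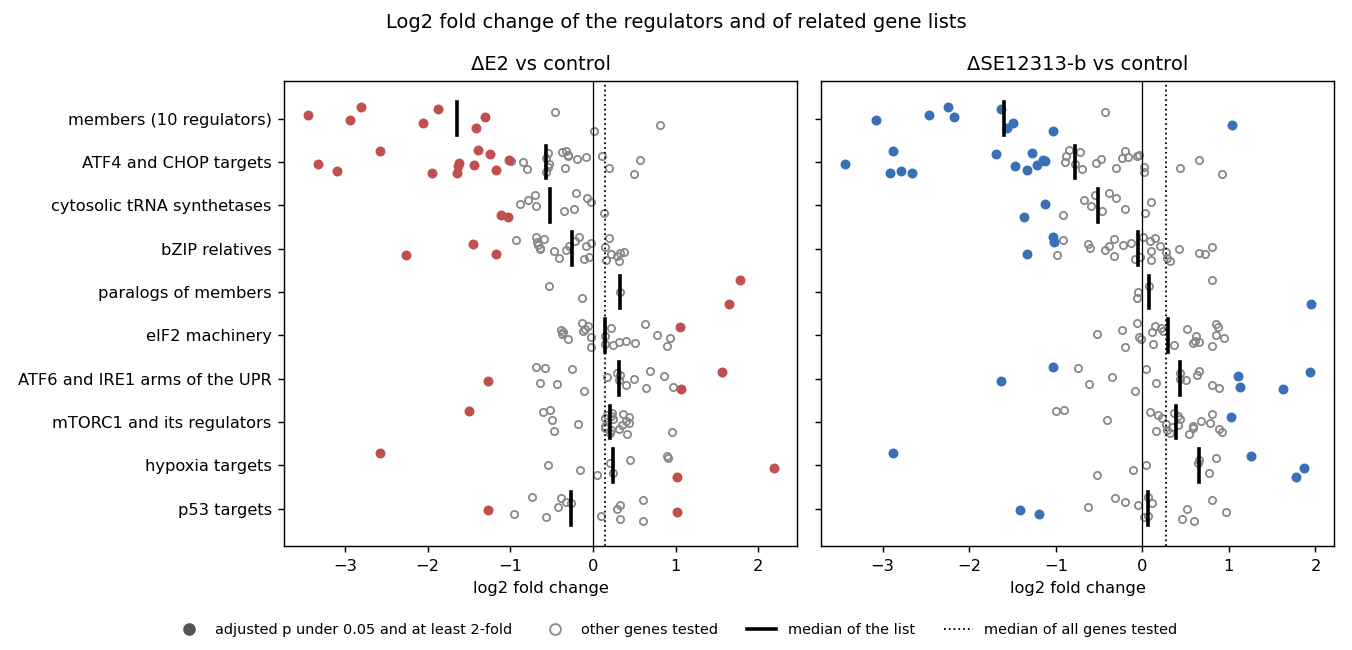
Log2 fold change of each tested gene (points) in the 10 regulators and in 9 related gene lists, for ΔE2 and ΔSE12313-b against the control; filled points have an adjusted p under 0.05 in limma and a change of at least 2-fold, bars are list medians and dotted lines the median of all genes tested. Targets of ATF4 and CHOP and tRNA synthetases lie mostly left of the dotted lines, while the median of the eIF2 machinery and of the other arms of the unfolded protein response is at or right of them.

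Cytosolic tRNA synthetases load amino acids on tRNAs, and several are ATF4 targets. Of 12 genes, all tested, 2 fell in ΔE2 (CARS and AARS) and 2 in ΔSE12313-b (AARS and MARS), and 0 rose. Of all genes tested, 8.36% and 7.83% fell and 11.2% and 14.7% rose. By adjusted p alone 7 and 9 synthetases were lower and 0 higher, and their median log2 fold change was -0.52 and -0.51. Of all 13789 genes tested, 2672 were lower and 4782 higher in ΔE2 by that measure, and 2261 and 5926 in ΔSE12313-b. AARS, for alanine, went from 124 ± 0.612 FPKM (SD, n = 2) to 61.0 ± 6.12 and 48.0 ± 2.85 (SD, n = 3 each), with log2 fold changes of -1.03 (-0.96 without ΔE2 replicate 1) and -1.37. EPRS (0.13 and 0.03) and NARS (-0.03 and 0.10) did not pass the test in either deletion. GARS, for glycine, was at 92.8 FPKM in the control and changed by -0.35 and -0.47, under 2-fold. With quantile normalization 6 and 7 of the genes fell.

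Upstream, few genes of the eIF2 machinery passed both thresholds. Of 22 genes for eIF2 kinases, subunits of eIF2 and of its exchange factor eIF2B, phosphatase subunits and their regulators, all were tested, 1 rose and 0 fell in ΔE2, and 0 rose and 0 fell in ΔSE12313-b by limma. By adjusted p alone 9 were higher and 3 lower in ΔE2, and 12 were higher and 1 lower in ΔSE12313-b. Of all 13789 genes tested, 4782 were higher and 2672 lower in ΔE2 by that measure, and 5926 and 2261 in ΔSE12313-b. More genes higher than lower is thus common in these comparisons. The gene that rose was PPP1CA, a catalytic subunit of the phosphatase that PPP1R15A directs to eIF2, from 40.4 ± 0.776 to 84.2 ± 5.52 FPKM (log2 fold change 1.05). It was under 2-fold with each library centred (0.90) or quantile normalized (0.70). The kinase EIF2AK3 (PERK) had log2 fold changes of 0.51 and 0.59 and EIF2AK4 (GCN2), which senses lack of amino acids, 0.32 and 0.65. PPP1R15B, the paralog of PPP1R15A that is always present, was at 16.7 ± 0.480, 15.2 ± 0.526 and 16.0 ± 1.10 FPKM.

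The ATF6 and IRE1 arms, the other branches of the unfolded protein response, held genes that rose and genes that fell. Of 19 genes tested, 2 rose and 1 fell in ΔE2, and 4 rose and 2 fell in ΔSE12313-b, which became 1 and 1, and 2 and 3, with each library centred. Of all genes tested, 11.2% rose and 8.36% fell in ΔE2, and 14.7% rose and 7.83% fell in ΔSE12313-b. SDF2L1, a partner of chaperones in the endoplasmic reticulum, rose from 2.65 ± 0.102 FPKM (SD, n = 2) to 8.03 ± 1.18 and 10.6 ± 1.62 (SD, n = 3 each). CALR, the chaperone calreticulin, rose from 178 ± 0.313 to 371 ± 11.7 and 551 ± 67.7, and was under 2-fold in ΔE2 with each library centred (0.90) or quantile normalized (0.68). ERN1, which is IRE1 itself, fell from 4.83 ± 0.247 to 1.96 ± 0.297 and 1.5 ± 0.132. XBP1, the mRNA that IRE1 splices, had log2 fold changes of -0.69 and -1.03, the latter -0.98 without control replicate 2. HSP90B1, another chaperone and the second most expressed of the list, had 0.32 and 0.50.

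Other bZIP factors were tested one by one. Of 32 relatives 28 were tested, 3 fell and 0 rose in ΔE2, and 3 fell and 0 rose in ΔSE12313-b, with medians of -0.26 and -0.06. Of all genes tested, 8.36% and 7.83% fell, so the number that fell here is near that share, while 11.2% and 14.7% rose. By adjusted p alone, 3 relatives were higher and 12 lower in ΔE2, and 4 higher and 7 lower in ΔSE12313-b. Of all 13789 genes tested, 4782 were higher and 2672 lower in ΔE2 by that measure, and 5926 and 2261 in ΔSE12313-b. With quantile normalization 6 and 5 fell, and with a pseudocount of 1 a single gene fell in ΔSE12313-b. CEBPG, a partner of ATF4, fell in both deletions (-1.17 and -1.33). JUNB, an AP-1 subunit, fell in ΔE2 (-1.45) and had -0.63 in ΔSE12313-b, and BATF3 fell in ΔE2 (-2.26) from 1.24 ± 0.161 FPKM, with 1, 12 and 1 reads in the clones. Its adjusted p (limma, Benjamini-Hochberg) was 0.0339, and 0.0912 to 0.147 when control replicate 1, control replicate 2, ΔE2 replicate 1 or ΔE2 replicate 3 was left out. XBP1 fell in ΔSE12313-b, as given above. FOSL1 and JUN, the most highly expressed, did not pass both thresholds in either deletion.

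Of 7 paralogs of the regulators, 5 were tested. CHAC2, the paralog of CHAC1, rose from 3.11 ± 0.198 FPKM (SD, n = 2) to 9.95 ± 1.42 and 12.4 ± 2.26 (SD, n = 3 each), opposite in direction to CHAC1. Its log2 fold changes were 1.64 in ΔE2 and 1.95 in ΔSE12313-b. TRIB2 rose in ΔE2 from 0.260 ± 0.211 to 1.03 ± 0.170 FPKM and had 0.479 ± 0.133 in ΔSE12313-b. The control values of TRIB2 rest on 4 and 14 reads, and without control replicate 1 its log2 fold change in ΔE2 went from 1.78 to 1.14 and did not pass the test (adjusted p = 0.0647, limma with Benjamini-Hochberg adjustment). TRIB1 had log2 fold changes of -0.53 and 0.08.

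SESN2 and DDIT4 act on mTORC1, and hypoxia and p53 are known to induce them as well. Of 26 genes of mTORC1 and its regulators, 24 were tested, with 0 higher and 1 lower in ΔE2 (WDR24, -1.5) and 1 higher and 0 lower in ΔSE12313-b (RRAGC, 1.02), which became 0 higher and 2 lower there with each library centred. RRAGC was also under 2-fold without ΔSE12313-b replicate 2 (0.97). RHEB, which activates mTORC1, had log2 fold changes of 0.40 and 0.68, and SEC13, of a complex upstream of it, 0.22 and 0.41. By adjusted p alone, 8 genes were higher and 4 lower in ΔE2, and 15 higher and 3 lower in ΔSE12313-b. For all 13789 genes tested these counts were 4782 and 2672, and 5926 and 2261. Of 13 hypoxia targets 11 were tested, 2 rose and 1 fell in ΔE2, and 3 rose and 1 fell in ΔSE12313-b, which became 1 and 1, and 2 and 1, with each library centred. Beside the counts of the mTORC1 and hypoxia lists, 11.2% of all genes tested rose and 8.36% fell in ΔE2. In ΔSE12313-b 14.7% rose and 7.83% fell. LDHA, which makes lactate, rose from 106 ± 4.05 FPKM (SD, n = 2) to 485 ± 62.8 and 387 ± 21.1 (SD, n = 3 each), whereas VEGFA, the angiogenic growth factor, which is listed among ATF4 targets as well, fell by 2.57 and 2.88 on the log2 scale. ADM, a vasodilator peptide, rose by 1.01 and 1.77, and its ΔE2 value was under 2-fold with each library centred (0.86), without control replicate 2 (0.98) and without ΔE2 replicate 1 (0.93). PGK1, a glycolytic enzyme, had 0.91 and 0.85, and by adjusted p alone 4 hypoxia targets were higher and 2 lower in ΔE2, and 7 higher and 1 lower in ΔSE12313-b.

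Of 15 p53 targets, all tested, 1 rose and 1 fell in ΔE2, and 0 rose and 2 fell in ΔSE12313-b. Of all genes tested, 8.36% and 7.83% fell by both thresholds, and 11.2% and 14.7% rose. By adjusted p alone, 4 p53 targets were higher and 6 lower in ΔE2, and 5 higher and 4 lower in ΔSE12313-b. Of all 13789 genes tested, 4782 were higher and 2672 lower in ΔE2 by that measure, and 5926 and 2261 in ΔSE12313-b. GADD45A, a brake on the cell cycle that ATF4 also induces, fell from 68.8 ± 0.588 FPKM (SD, n = 2) to 28.6 ± 2.20 and 26.2 ± 4.95 (SD, n = 3 each). CDKN1A (p21) fell in ΔSE12313-b (-1.20) and had -0.96 in ΔE2. FAS, a death receptor, rose in ΔE2 (1.01) and was under 2-fold there with each library centred (0.85), without control replicate 2 (0.95) and without ΔE2 replicate 2 (0.80). BAX, a pore former of the mitochondrial death pathway, had 0.33 and 0.46.

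Markers of cell types differed between the groups too, and their part in the levels of the 10 regulators was not tested. The summed FPKM of 8 epithelial markers was 234 to 240 in control libraries, 615 to 754 in ΔE2 clones and 542 to 670 in ΔSE12313-b clones. KRT8 and KRT18 made up most of it, while CDH1 and NKX2-1 were at 0 in every library. The summed FPKM of 12 endothelial markers was 474 to 476, 527 to 760 and 518 to 727. That of 6 fibroblast and mural markers was 5.01 to 6.41, 0.448 to 1.79 and 0.666 to 1.47, with LUM and DCN at 0.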

How the data were processed

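Total RNA depleted of ribosomal RNA from EA.hy926 cells (2 control, 3 ΔE2 and 3 ΔSE12313-b libraries) was sequenced from one end. Read trimming with Trim Galore 0.4.4 and mapping to GRCh37 with STAR 2.5.4b were done by the authors. They deposited 1 table with FPKM for each RefSeq transcript; the tool that counted the reads, the RefSeq release and the use of strand are not given in the sources used here. The authors' own calls of DEGs rest on featureCounts and edgeR, and their counts were not used here.

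FPKM times transcript length fell on whole multiples of 1 step in each library (100% of values, within 0.1 read), which gave the reads behind each value. Between 7801359 and 13371431 reads per library fell on the genes. The 42 lines that name no gene, with 0.056% to 0.0758% of the reads, were left out. Groups were taken from the labels. Per gene the transcript with the highest mean was kept, and genes with at least 0.5 FPKM in at least 2 libraries were tested on log2(FPKM + 0.1), a scale that understates changes of low genes, with limma 3.58.1 in R 4.3.3 (1 model with 3 groups, empirical Bayes with trend, two-sided, 5 residual degrees of freedom). Benjamini-Hochberg adjustment ran over all 13789 genes, and genes said to rise or fall passed both an adjusted p of 0.05 and a 2-fold change. These steps were tested on simulated data in which all libraries had the same spread. That test does not cover the unequal spread of controls and clones seen here. Element matches were searched in the GRCh37 sequence and in RefSeq promoters (GRCh38.p14); annotation was GENCODE v44 lifted to GRCh37. Protein sequences were not used here.

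The 10 genes and all gene lists were chosen with earlier results of these data known. Named are the 10 genes, genes of the eIF2 list, of each other list the 2 largest rises and falls that passed both thresholds per deletion and the 2 genes with the highest mean, and per gene the 2 most similar in profile. Overlapping genes, markers, PSPH, ALDH18A1, ERO1A, KLHL24, EPRS and NARS were named after their values were seen. The 1000-base window for the element was chosen after seeing the data.

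Alternatives were pseudocounts of 0.01 and 1, all genes above 0 FPKM in 2 libraries, and a mean FPKM of at least 1. Libraries were also centred on the median deviation of their genes from the gene means, or quantile normalized. Others were a replicate block, no trend, only the groups compared, FPKM summed over transcripts and limma voom on the recovered reads. A 1.5-fold or no minimum change was used as well, and each library was left out in turn.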

Additional observations from a re-analysis of the deposited data

Results flagged for a closer look

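The results below drew attention because ΔE2 and ΔSE12313-b clones differed in the direct limma comparison (Benjamini-Hochberg adjustment over all genes), though both deletions were compared with the same control. ATF3 was higher in ΔE2, with a log2 difference of 1.03, and its adjusted p stayed under 0.05 in 19 of 19 refits (highest 0.0343). DDIT3 was also higher in ΔE2, by 0.88, and its adjusted p was at or above 0.05 in 2 of 19 refits (highest 0.0573). TRIB3 was lower in ΔE2, with a difference of -0.56 and an adjusted p under 0.05 in all 19 refits (highest 0.0223).

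CEBPB had a difference of -0.58 and DDIT4 one of -0.98, and both crossed 0.05 in most refits, with adjusted p up to 0.0971 and 0.145. Of the factors, ATF3 and DDIT3 were thus lower in ΔSE12313-b, and CEBPB was lower in ΔE2. With each library centred the difference in DDIT3 was 1.01 and that in CEBPB -0.45. The spread among clones of 1 deletion was wide for DDIT4 and ATF3, where single libraries moved the values as given above.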

How the results depend on the processing

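No call of a gene among the 10 turned its direction under the 21 alternatives. Against the control, 208 of 210 values in ΔE2 kept their side of the thresholds and 2 passed them (ATF5, with a 1.5-fold or no minimum change), and in ΔSE12313-b 204 kept theirs and 6 dropped under 2-fold or above 0.05 (ATF3 and ATF5). ATF3 in ΔSE12313-b had log2 fold changes of -0.87 with a pseudocount of 1, and ATF5 0.97 with that pseudocount, 0.75 with libraries centred and 0.68 with quantile normalization. Between the deletions 196 kept theirs, 11 passed and 3 dropped; the cause was not tested. The number of the 10 genes past both thresholds there was 1, and it was 0 with a pseudocount of 1, 2 with libraries centred, 3 at 1.5-fold, 5 with no minimum change, and 0 to 3 with 1 library left out.

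The count over all genes in ΔE2 was 2697, and 1718 with a pseudocount of 1, 5053 at 1.5-fold and 7454 with no minimum change. In ΔSE12313-b it was 3112, and 2004, 5802 and 8187 under the same alternatives. Between the deletions it was 583, and 240, 1631 and 3589.

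The replicate numbers did not pair the samples: deviations of same-numbered ΔE2 and ΔSE12313-b libraries correlated at 0.107, -0.08 and -0.073. With a replicate block, 7 of the 10 genes were past the thresholds in ΔE2, 9 in ΔSE12313-b and 1 between the deletions, as without it, and the counts over all genes were 2530, 2962 and 523. The adjusted p of the direct difference in DDIT3 was 0.0573 with the block, in CEBPB 0.0511 and in DDIT4 0.0979.

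Depth limits CHAC1 most, with 11 to 20 reads per clone. Intervals from limma cover the spread between libraries, and 2 controls with a spread near counting error may understate that of the control.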
